A study of Mus musculus with 40 samples.

Results

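Light and dark rearing were compared in astrocytes of the mouse primary visual cortex (V1) that lacked the glucocorticoid receptor (GR). The members were all RNA libraries labelled P28 GR-KO, 3 from normally reared (NR) mice and 4 from dark-reared (DR) mice, 7 of the 40 libraries of the series, and every gene that passed the filter on low counts, 17106 of 25239. All mice carried floxed alleles of the GR gene (GRfl/fl). GR-KO mice received, at postnatal day (P) 0 to 1, an adeno-associated virus AAV2/5 in which the astrocyte promoter GfaABC1D drives Cre together with a GFP anchored in the nuclear envelope. GR-Con mice received the same virus with an inactive ΔCre. NR mice lived in a reversed light and dark cycle and DR mice in chronic darkness until P28, and per the methods all were collected under red light in a fixed window of the day. A library was made from sorted GFP+ nuclei of a frozen V1 pool of 1 male and 1 female mouse, so nuclear RNA of every nucleus carrying the virus was measured, whether or not its receptor gene had been recombined. P28 GR-Con libraries and P21 GR-KO libraries, each with 3 NR and 4 DR, served for comparison.

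Immediate early genes are switched on within minutes of a signal that reaches the nucleus, such as calcium or cyclic AMP, without new protein synthesis. They encode transcription factors of the FOS, EGR and NR4A families, which act on later genes, and a few secreted or signalling proteins. Astrocytes are also a major site of cholesterol synthesis in the brain, which takes up little cholesterol from the blood, and hand sterol to neurons. The enzymes of that pathway are controlled together by the transcription factor SREBP2, which is held back by INSIG1 when sterol is abundant.

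The 7 libraries held 38884987 to 48861467 counts and detected 18338 to 18740 genes. The genotypes were told apart by Etnppl, a phospholyase gene that the study uses as a marker of mature astrocytes, which stood at 3.43 to 5.76 CPM (counts scaled to a common library size) in the GR-KO libraries and 70.0 to 269.7 CPM in the P28 GR-Con libraries. Nr3c1, the targeted gene, gave no measure of recombination, because the deposited counts cover the whole gene and the floxed part was not looked at: it measured 294, 309 and 250 CPM in NR, against 309, 252, 250 and 242 CPM in DR, with 224 to 275 CPM in GR-Con. Astrocyte markers summed to 18445 to 21132 CPM in NR and 17432 to 21395 CPM in DR. Neuron markers, at 4099 to 4715 CPM in NR and 4221 to 4870 CPM in DR, and oligodendrocyte markers, at 848 to 1019 CPM in NR and 665 to 1296 CPM in DR, were also present, and no marker of either list was at 0 in any library. NR replicate 3, the library of least depth, stood apart from the other NR libraries: on the first principal component it lay at 2.69, replicates 1 and 2 at -13.6 and -15.8, and the DR libraries between -8.56 and 18.6. DR replicate 1 had the lowest oligodendrocyte sum. In these bulk libraries, fewer cells of a type and less RNA per cell cannot be told apart.

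More genes were called higher than lower after light rearing. With edgeR's quasi-likelihood test, 96 genes were called higher in NR (0.561% of the genes tested) and 15 lower (0.0877%). At an unadjusted p below 0.05, 7.38% of all genes were higher and 4.2% lower. The genes called higher had a median log2 fold change of 0.72, with a range of 0.27 to 2.38, and the 15 genes called lower differed by 0.51 at the median and by at most 0.91. In NR replicates 1 and 2, all 96 genes exceeded every DR library, beside 21.9% and 27% of all genes tested. In NR replicate 3, 72 of the 96 did, beside 16.6% of all genes tested. All 15 genes called lower were below every DR library in each NR library, beside 3.64% of all genes tested. Both sets were selected on these same libraries, so a share above that of all genes largely follows from the selection. The count depended on single libraries: 10 genes were called without NR replicate 1, 28 without NR replicate 2 and 578 without NR replicate 3. Leaving out DR replicate 3 or 4 left 62 and 39 calls. In a fit of the 7 libraries alone, 1 gene, Igfn1, was called.

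The immediate early genes formed the group with the largest effects. All 27 listed genes were tested, all 27 had a fold change above 0, and 10 were called higher, beside 0.561% of all genes. The median log2 fold change of the 27 was 1.11, against -0.0039 for all genes. In 19 of the 27 every NR library exceeded every DR library, beside 3.7% of all genes tested. Their summed level was 1084, 1076 and 1072 CPM in NR, against 302, 669, 571 and 315 CPM in DR. The NR libraries were nearly level, whereas DR replicates 2 and 3 stood well above DR replicates 1 and 4.

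**Figure D1:**
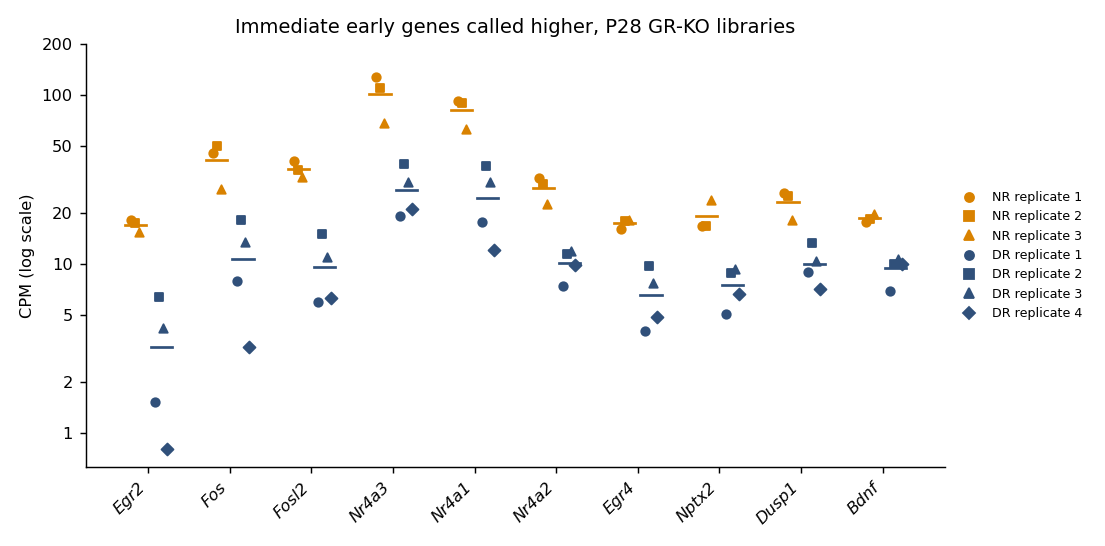
Level of the 10 immediate early genes called higher in P28 GR-KO astrocyte nuclei, in CPM on a log axis. Each point is a library (NR orange, DR blue; symbols give the replicate) and bars are group means; in every gene the lowest NR library is above the highest DR library.

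Among the transcription factors, Egr2, a zinc finger factor, had the largest fold change of all the genes named by the rule. It measured 18.1, 17.4 and 15.4 CPM in NR, against 1.53, 6.34, 4.15 and 0.805 CPM in DR, a log2 fold change of 2.38 ± 0.43 (SE) with an edgeR adjusted p of 0.0025. The NR libraries were close together, and DR replicates 1 and 4 were the lowest. RefSeq places another gene model over 22.2% of Egr2, and reads of such pairs cannot be told apart without a known strand setting. Its relative Egr4 had 16.1, 17.8 and 18.1 CPM in NR, against 4.03, 9.65, 7.67 and 4.85 CPM in DR (log2 fold change 1.40 ± 0.32, edgeR adjusted p = 0.029). Egr1 was not called (edgeR adjusted p = 0.0757) although it stood at 147, 159 and 229 CPM in NR and at 47.8, 122, 108 and 52.5 CPM in DR.

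Fos, which pairs with JUN proteins to form the AP-1 factor, had 45.5, 49.8 and 27.8 CPM in NR, against 7.87, 18.3, 13.4 and 3.22 CPM in DR. The log2 fold change was 1.93 ± 0.41 (edgeR adjusted p = 0.0132), and the lowest NR library, replicate 3, was above the highest DR library. Fosl2, another partner of JUN, reached 40.8, 36.0 and 32.8 CPM in NR, against 5.92, 15, 10.9 and 6.28 CPM in DR (1.93 ± 0.35, edgeR adjusted p = 0.00312). The JUN partners themselves were not called. Junb had 38.5, 39.4 and 27.1 CPM in NR and 8.55, 22.8, 21 and 9.04 CPM in DR (edgeR adjusted p = 0.105), while Jun had 35.0, 35.0 and 37.5 CPM in NR and 24.1, 36.5, 35.3 and 34.1 CPM in DR, with overlapping libraries.

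All 3 members of the NR4A family of orphan nuclear receptors were called. Nr4a1 had 91.4, 89.0 and 62.6 CPM in NR, against 17.6, 38.0, 30.3 and 12.1 CPM in DR (log2 fold change 1.72 ± 0.33, edgeR adjusted p = 0.00508). Nr4a3 reached 127, 110 and 68.3 CPM in NR, against 19.1, 39.2, 30.5 and 21.1 CPM in DR (1.88 ± 0.40, edgeR adjusted p = 0.0137). Nr4a2 had 32.0, 29.8 and 22.5 CPM in NR and 7.37, 11.4, 12 and 9.80 CPM in DR (1.47 ± 0.35, edgeR adjusted p = 0.0344). In each of the 3, NR replicate 3 was the lowest NR library and still above DR. Of the 7 fits that left out a library, Nr4a1 was called in 6, Nr4a3 in 4 and Nr4a2 in 1.

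Secreted and signalling products of the group were called with smaller effects and less spread. Bdnf, a neurotrophin, had 17.8, 18.5 and 19.8 CPM in NR, against 6.87, 9.99, 10.6 and 10.0 CPM in DR, with a log2 fold change of 0.99 ± 0.14 and the smallest adjusted p among the genes named by the rule (edgeR, 0.000341). Nptx2, a neuronal pentraxin that gathers glutamate receptors at synapses, had 16.8, 16.7 and 24 CPM in NR, against 5.05, 8.79, 9.29 and 6.63 CPM in DR (1.36 ± 0.24, edgeR adjusted p = 0.00243). Dusp1, a phosphatase that switches off MAP kinases, had 26.2, 25.1 and 18.3 CPM in NR, against 8.97, 13.3, 10.3 and 7.11 CPM in DR (1.22 ± 0.20, edgeR adjusted p = 0.00162). Of the 10 called members, Egr4, Nptx2 and Bdnf were highest in NR replicate 3. Arc and Npas4 did not pass. Arc stood at 221, 237 and 242 CPM in NR and 47.1, 151, 117 and 31.9 CPM in DR (edgeR adjusted p = 0.106), and Npas4 had 22.1, 19.3 and 8.49 CPM in NR and 6.69, 9.03, 7.41 and 6.17 CPM in DR.

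Several of these genes, Arc, Npas4, Nptx2 and Bdnf among them, are best known from neurons, and nuclei of neurons were present by their markers. The 18 neuron markers had a median log2 fold change of -0.03, with 0 called and 0 at an unadjusted p below 0.05 in edgeR. Of these markers, 1 was below all DR libraries in every NR library, beside 3.64% of all genes. The neuron sum was 4120, 4099 and 4715 CPM in NR, against 4221, 4725, 4870 and 4836 CPM in DR. It was below every DR library in NR replicates 1 and 2 and within the DR range in NR replicate 3, where 7 of the 18 markers were above all DR libraries, beside 16.6% of all genes. With neuron and oligodendrocyte marker levels as covariates, a setting chosen after seeing the data, 18 of the 27 immediate early genes were called. In that setting the calls over all genes also rose, from 111 to 431. Whether the signal came from astrocyte or other nuclei was not tested. Without NR replicate 3, 13 immediate early genes were called, beside 578 of all genes. The fewest, 4, were called without NR replicate 1, beside 10 of all genes. Egr2, Bdnf, Nptx2 and Dusp1 were called whichever of the 7 libraries was left out. Fosl2 was called in 6 of these 7 fits, Fos in 4 and Egr4 in 2. In the fit of the 7 libraries alone none was called.

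The windows just upstream of the start sites of Nr4a1 and Egr2 are shown because both genes were called and the letters TGACG, the core letters of the site to which CREB and related factors bind, recur there. The 250 bases before the annotated start were taken from RefSeq on GRCm38.p6 (mm10), plus strand, 5′ to 3′. Capitals mark TGACG, which reads CGTCA on the opposite strand, and, in Egr2, also the CArG box bound by serum response factor. The Nr4a1 window is chr15:101266596-101266845 and the Egr2 window is chr10:67537619-67537868.
Nr4a1: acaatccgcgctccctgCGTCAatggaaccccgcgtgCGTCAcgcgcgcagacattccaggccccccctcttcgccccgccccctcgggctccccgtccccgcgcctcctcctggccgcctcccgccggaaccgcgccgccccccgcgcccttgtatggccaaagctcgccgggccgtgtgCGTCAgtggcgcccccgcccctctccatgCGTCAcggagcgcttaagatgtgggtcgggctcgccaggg
Egr2: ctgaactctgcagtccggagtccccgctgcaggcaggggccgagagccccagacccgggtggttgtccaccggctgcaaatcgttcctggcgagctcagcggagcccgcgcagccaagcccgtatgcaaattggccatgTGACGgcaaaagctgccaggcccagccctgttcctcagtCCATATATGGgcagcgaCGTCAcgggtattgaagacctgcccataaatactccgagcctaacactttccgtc
The bases shown hold 4 such sites in Nr4a1, and 2 such sites and 1 CArG box in Egr2. Shares were counted over longer windows, which also reach past the start site, at every annotated start of a gene. Egr2 has further annotated starts, and its windows at chr10:67535249-67535548 and chr10:67537316-67537615 held no TGACG. A gene with more starts has more windows in which the letters can match, and the shares were not matched for this. In at least 1 such window, TGACG on either strand was found in 8 of the 9 called immediate early genes that had a window (88.9%). It was also found in 16 of the 21 tested immediate early genes with a window, called or not (76.2%). Of the 13435 tested genes with a window, 31.3% held it. The full palindrome TGACGTCA was found in 1 of the 9, and in 3.19% of all tested genes with a window. A match of letters describes the sequence and does not show binding.

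Cholesterol genes were the group with the most calls. Of 21 listed genes, all tested, 13 were called higher and none lower, beside 0.561% and 0.0877% of all genes. At an unadjusted p below 0.05 in edgeR, 18 were higher and 1 lower, beside 7.38% and 4.2% of all genes. The median log2 fold change was 0.67, against -0.0039 for all genes. The calls rested on NR replicates 1 and 2. The median member stood 1.01 and 0.82 log2 units above the DR mean in these libraries and -0.06 in NR replicate 3. NR replicates 1 and 2 each exceeded every DR library in 19 of the 21 genes, and NR replicate 3 in 2 of 21, beside 21.9%, 27% and 16.6% of all genes tested in replicates 1, 2 and 3. The summed level was 3110, 2916 and 1857 CPM in NR, against 1758 to 1928 CPM in DR. Without NR replicate 3, 18 of 21 were called. By contrast, 1 was called without NR replicate 1, 2 without NR replicate 2, 5 without DR replicate 4 and 7 without DR replicate 2. Over all genes, these fits called 578, 10, 28, 39 and 109 genes in the same order. In the fit of the 7 libraries alone none was called. It was not tested whether the cholesterol signal came from astrocyte or other nuclei.

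**Figure D2:**
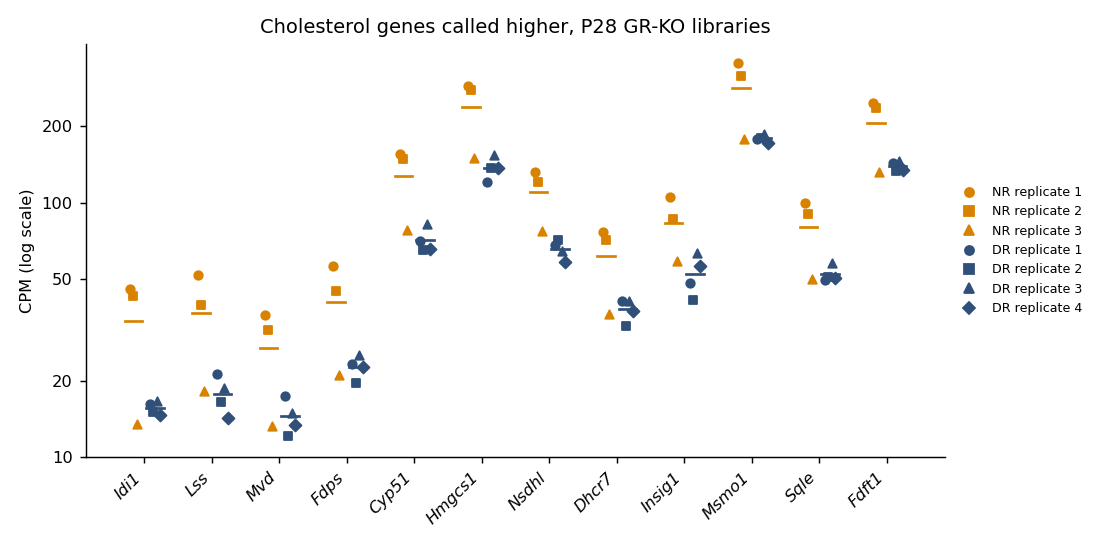
Level of 12 of the 13 cholesterol genes called higher in P28 GR-KO astrocyte nuclei, in CPM on a log axis, drawn as for the immediate early genes. NR replicates 1 and 2 are above all DR libraries in the 12 genes drawn, while NR replicate 3 is above them only in Nsdhl.

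The early steps of the pathway lead from acetyl-CoA to farnesyl diphosphate. Hmgcs1, which condenses acetyl-CoA units, had 290, 279 and 150 CPM in NR, against 121, 138, 154 and 137 CPM in DR (log2 fold change 0.80 ± 0.16, edgeR adjusted p = 0.00907). Here NR replicate 3 lay within the DR range. Mvd, the decarboxylase of the mevalonate branch, had 36.2, 31.5 and 13.2 CPM in NR, against 17.4, 12.2, 14.9 and 13.4 CPM in DR (0.90 ± 0.19, edgeR adjusted p = 0.0143). Idi1, the isomerase that follows, had 46.0, 43.2 and 13.5 CPM in NR, against 16.2, 15, 16.6 and 14.7 CPM in DR (1.13 ± 0.23, edgeR adjusted p = 0.00762), so that NR replicate 3 was the lowest of all 7 libraries. Fdps, farnesyl diphosphate synthase, followed the same order with 56.5, 45.2 and 21 CPM in NR, against 19.7 to 25.3 CPM in DR.

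The later steps build squalene, close the sterol rings and remove methyl groups. Lss, which closes the rings, had 52.3, 39.7 and 18.3 CPM in NR, against 21.3, 16.6, 18.8 and 14.3 CPM in DR (1.05 ± 0.21, edgeR adjusted p = 0.00766). Cyp51, a demethylase, had 156, 150 and 78.2 CPM in NR, against 70.9, 65.1, 82.8 and 66.1 CPM in DR (0.84 ± 0.14, edgeR adjusted p = 0.00176). NR replicates 1 and 2 were again high and NR replicate 3 overlapped DR. Nsdhl, another enzyme of the demethylation, had 132, 121 and 77.5 CPM in NR, against 58.4 to 71.6 CPM in DR, and here all NR libraries were higher. Fdft1, Sqle, Msmo1 and Dhcr7 were called with log2 fold changes of 0.56 to 0.69. Insig1, the sterol sensor that restrains SREBP2, was also called (0.67 ± 0.15, edgeR adjusted p = 0.0179). RefSeq places another gene model over the whole of Insig1, over 44.1% of Lss and over 32.7% of Mvd, so the same limit holds for these genes.

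Other members were not called. Mvk, a kinase of the mevalonate branch, had 67.3, 53.1 and 28.6 CPM in NR and 34.3, 28.1, 31.6 and 26.2 CPM in DR (edgeR adjusted p = 0.0933). Srebf2, the gene of SREBP2, had 286, 284 and 235 CPM in NR and 252, 227, 232 and 222 CPM in DR (0.20 ± 0.08, edgeR adjusted p = 0.292). The exporters did not share the pattern. Abca1 had 466, 491 and 427 CPM in NR and 413 to 519 CPM in DR, and Abcg1 had the only negative fold change of the list, with 18.3, 19.8 and 22.6 CPM in NR and 22.2 to 28.9 CPM in DR (-0.40 ± 0.15, edgeR adjusted p = 0.265).

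The windows upstream of Hmgcs1 and Idi1 are shown because CCAAT boxes, bound by the factor NF-Y that assists SREBP2, occur in them more than once. Capitals mark CCAAT, which reads ATTGG on the opposite strand, and, in Hmgcs1, the sterol element TCACNCCAC. The Hmgcs1 window is chr13:119690101-119690350 and the Idi1 window is chr13:8885356-8885605, both from RefSeq on GRCm38.p6, plus strand, 5′ to 3′, 250 bases before the annotated start.
Hmgcs1: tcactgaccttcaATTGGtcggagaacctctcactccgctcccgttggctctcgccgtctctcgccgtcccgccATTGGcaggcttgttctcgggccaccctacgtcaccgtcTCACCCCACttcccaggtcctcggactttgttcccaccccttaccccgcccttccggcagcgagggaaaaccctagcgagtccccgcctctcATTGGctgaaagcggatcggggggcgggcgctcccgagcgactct
Idi1: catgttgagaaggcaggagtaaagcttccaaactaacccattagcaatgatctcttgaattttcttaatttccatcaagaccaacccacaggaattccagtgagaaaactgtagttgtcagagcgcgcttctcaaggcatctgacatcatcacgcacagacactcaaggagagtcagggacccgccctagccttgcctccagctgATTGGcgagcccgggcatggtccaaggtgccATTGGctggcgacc
The bases shown hold 3 CCAAT boxes and 1 sterol element in Hmgcs1 and 2 CCAAT boxes in Idi1. In the longer windows that also reach past each annotated start, CCAAT on either strand was found in all 9 called cholesterol genes that had a window. It was also found in 12 of the 13 tested cholesterol genes with a window, called or not (92.3%). Of the 13435 tested genes with a window, 41.9% held it. The sterol element was found in 1 of the 9, and in 1.44% of all tested genes with a window. These shares too were not matched for the number of windows of a gene.

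Other lipid genes, chosen after their values were seen, were highest in NR replicates 1 and 2. Stard4, a sterol carrier, had 42.7, 36.4 and 21.2 CPM in NR, against 14.6, 16.2, 19.9 and 18 CPM in DR (0.96 ± 0.16, edgeR adjusted p = 0.00162). Hsd17b7, a late enzyme of sterol synthesis, had 89.8, 85.2 and 32.2 CPM in NR, against 35.3, 28, 32.9 and 33.2 CPM in DR (1.09 ± 0.18, edgeR adjusted p = 0.00162). Pmvk, a kinase of the mevalonate branch, had 63.7, 52.5 and 35.1 CPM in NR, against 28.2, 28.2, 32.9 and 30.0 CPM in DR. Of these 3 sterol genes, NR replicate 3 was above all DR libraries in 2, Stard4 and Pmvk, beside 16.6% of all genes. Elovl6, which lengthens fatty acids, had 308, 329 and 156 CPM in NR, against 157, 139, 137 and 135 CPM in DR (0.90 ± 0.17, edgeR adjusted p = 0.0053). Acly and Acss2, which supply acetyl-CoA, were called at 0.63 and 0.72, and Aacs, which activates acetoacetate, at 0.85. Of 7 fatty acid and acetyl-CoA genes picked in this way, NR replicate 3 was above all DR libraries in 1, beside 16.6% of all genes.

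**Figure D3:**
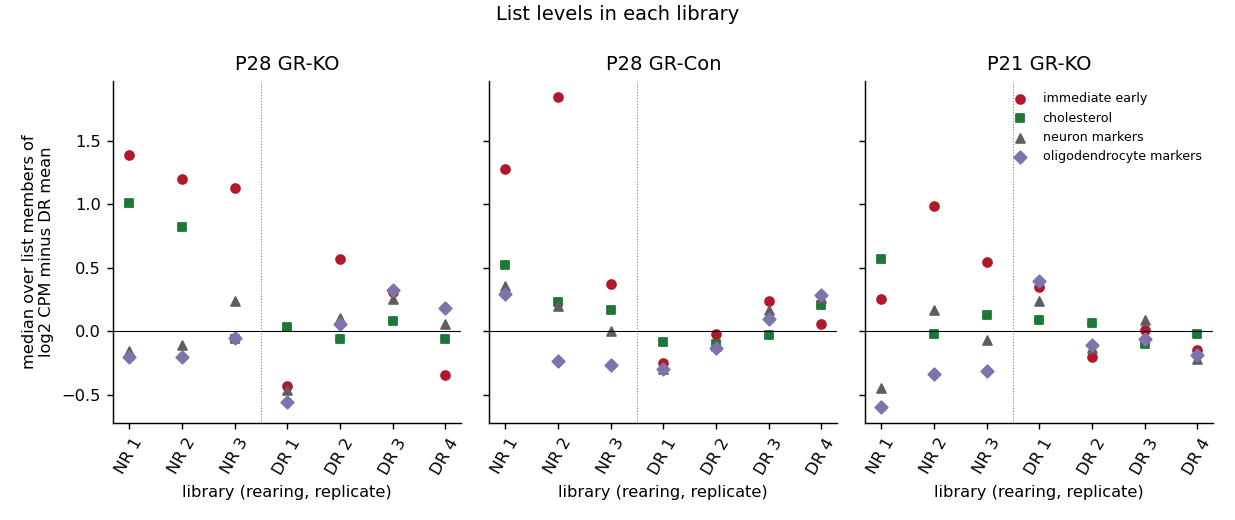
Median over the members of 4 lists of the log2 CPM of a library minus the DR mean of its set, for P28 GR-KO, P28 GR-Con and P21 GR-KO libraries (NR left of the dotted line, DR right). In P28 GR-KO the immediate early list is between 1.12 and 1.38 in all NR libraries, while the cholesterol list is at 1.01, 0.82 and -0.06.

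Sik1, a kinase induced by cyclic AMP that inhibits the CREB coactivators, had 45.2, 41.6 and 25.8 CPM in NR, against 6.47, 14.7, 8.21 and 3.96 CPM in DR (log2 fold change 2.17 ± 0.39, edgeR adjusted p = 0.0025). Sik2, like Pde3a and Pde7b chosen after its values were seen, was called too (0.65), which makes 2 of the 3 Sik genes tested. Among the phosphodiesterases, which break down cyclic nucleotides, 3 of 22 tested were called higher, beside 0.561% of all genes, and this family was picked after its values were seen. Pde10a had 856, 839 and 644 CPM in NR, against 330, 491, 108 and 89.1 CPM in DR (1.62 ± 0.39, edgeR adjusted p = 0.0388). DR replicates 3 and 4 were far below DR replicates 1 and 2. Pde3a had 82.6, 83.8 and 50.5 CPM in NR, against 48.2, 47.4, 27.4 and 26.0 CPM in DR (0.96 ± 0.19, edgeR adjusted p = 0.00738), and Pde7b followed with 523, 563 and 498 CPM in NR, against 354, 419, 209 and 197 CPM in DR. The same DR libraries were low in all 3, and the NR and DR libraries did not overlap.

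Other genes named by the rule encode proteins of several kinds. Gem, a small GTPase that dampens calcium channels, had 41.6, 37.3 and 17.3 CPM in NR, against 9.58, 9.91, 10.5 and 6.56 CPM in DR (1.81 ± 0.33, edgeR adjusted p = 0.0025). Coq10b, which binds coenzyme Q in mitochondria, had 79.3, 72.2 and 31.7 CPM in NR, against 23.4, 26.5, 19.6 and 19.1 CPM in DR (1.46 ± 0.22, edgeR adjusted p = 0.000548), and was called whichever library was left out. In both, NR replicate 3 was lowest among the NR libraries yet above DR. Ptgs2, the inducible cyclooxygenase, had 4.66, 4.09 and 6.87 CPM in NR, against 0.948, 2.95, 1.77 and 1.06 CPM in DR (1.61 ± 0.35, edgeR adjusted p = 0.0153). Bambi, a decoy receptor of the TGF-β family, had 7.18, 7.43 and 3.06 CPM in NR, against 1.61, 2.73, 1.51 and 1.66 CPM in DR (1.64 ± 0.31, edgeR adjusted p = 0.00443). Igfn1, an immunoglobulin domain protein, was the most even of these, with 11.3, 11 and 11.9 CPM in NR, against 5.34, 4.43, 4.13 and 4.05 CPM in DR (1.35 ± 0.26, edgeR adjusted p = 0.00676). Another gene model covers 30.6% of Igfn1.

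A further set of called genes was chosen after their values were seen. Dio2, the deiodinase with which astrocytes make active thyroid hormone, had 552, 512 and 478 CPM in NR, against 261, 377, 281 and 252 CPM in DR (0.81 ± 0.14, edgeR adjusted p = 0.00162). Slco1c1, a thyroid hormone transporter, had 1301, 1277 and 951 CPM in NR, against 818, 972, 541 and 472 CPM in DR (0.75 ± 0.18, edgeR adjusted p = 0.0415), and here NR replicate 3 was below DR replicate 2. Irs2, which relays insulin signals, had 91.7, 92.0 and 71.2 CPM in NR, against 30.2, 51.3, 40.6 and 35.0 CPM in DR (1.11 ± 0.22, edgeR adjusted p = 0.00726). Homer1, a scaffold of glutamate receptors, had 370, 394 and 290 CPM in NR, against 203, 244, 203 and 155 CPM in DR (0.80 ± 0.15, edgeR adjusted p = 0.00443). Ccn1, a matrix protein, had 33.0, 33.7 and 13.5 CPM in NR, against 8.87, 14.4, 9.48 and 7.06 CPM in DR (1.42 ± 0.28, edgeR adjusted p = 0.00738).

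In 3 further lists a single gene was called higher, beside 0.561% of all genes. In the circadian list, Per1, a repressor of the clock, was 1 of 17 tested genes called (0.64 ± 0.15, edgeR adjusted p = 0.0392). It had 111, 91.0 and 91.0 CPM in NR, against 65.1, 75.3, 64.1 and 46.4 CPM in DR, and the list median was 0.06. In the glucose and glycogen list, Ppp1r3c, which directs a phosphatase to glycogen, was 1 of 26 (0.56 ± 0.11, edgeR adjusted p = 0.00513), with 73.4, 71.6 and 58.9 CPM in NR, against 39.6, 47.1, 53.1 and 45 CPM in DR and a list median of 0.03. Among 5 maturation markers of the study, Aldh1a1, which makes retinoic acid, had 86.7, 88.9 and 59.3 CPM in NR, against 54.4, 44.9, 42.7 and 46.9 CPM in DR (0.73 ± 0.17, edgeR adjusted p = 0.029). RefSeq places other gene models over 42.8% of Aldh1a1, and the study named these markers from genes that differed with genotype in this series, so the list is not independent evidence. Of the 7 fits that left out a library, Ppp1r3c was called in 5, and Per1 and Aldh1a1 in 2 each. Ezr was not called (0.36 ± 0.10, edgeR adjusted p = 0.0845), and Etnppl had 4.24, 3.88 and 3.97 CPM in NR and 3.43 to 5.76 CPM in DR.

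Genes called lower were few and small in effect, and in each the libraries did not overlap. Otof, a calcium sensor of vesicle release, had 10.8, 10.3 and 14.2 CPM in NR, against 21.5, 20.5, 22.5 and 24 CPM in DR (-0.91 ± 0.15, edgeR adjusted p = 0.00162), and was called whichever of the 7 libraries was left out. Matn2, a matrix adaptor protein, had 11, 12.5 and 13.7 CPM in NR, against 19.2, 23.5, 18.1 and 19.1 CPM in DR (-0.69 ± 0.12, edgeR adjusted p = 0.00243). Col5a1, a fibrillar collagen, had 23.6, 18.5 and 18.6 CPM in NR, against 42.8, 31.9, 31.8 and 34.1 CPM in DR (-0.80 ± 0.18, edgeR adjusted p = 0.0215). The enzyme genes Mgat5b, which branches glycans, and Pck2, a mitochondrial carboxykinase, had log2 fold changes of -0.55 and -0.52. Cacna1h, a T-type calcium channel, was the most even: 13.5, 13.3 and 12.1 CPM in NR, against 18.9, 18.6, 17.9 and 18.2 CPM in DR (-0.51 ± 0.12, edgeR adjusted p = 0.0374), although it was called in none of the 7 fits that left out a library. Samd14, Snx15, Mdga1, Car11, Adam11, Calcoco1 and Prr12 were called at -0.27 to -0.47. Outside the naming rule, Mme, the peptidase neprilysin, was called at -0.88 and A330041J22Rik at -0.78, both below 5 CPM. Crocc and Cdkl1, the next genes without overlap, were not called, with edgeR adjusted p of 0.0574 and 0.0712.

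**Figure D4:**
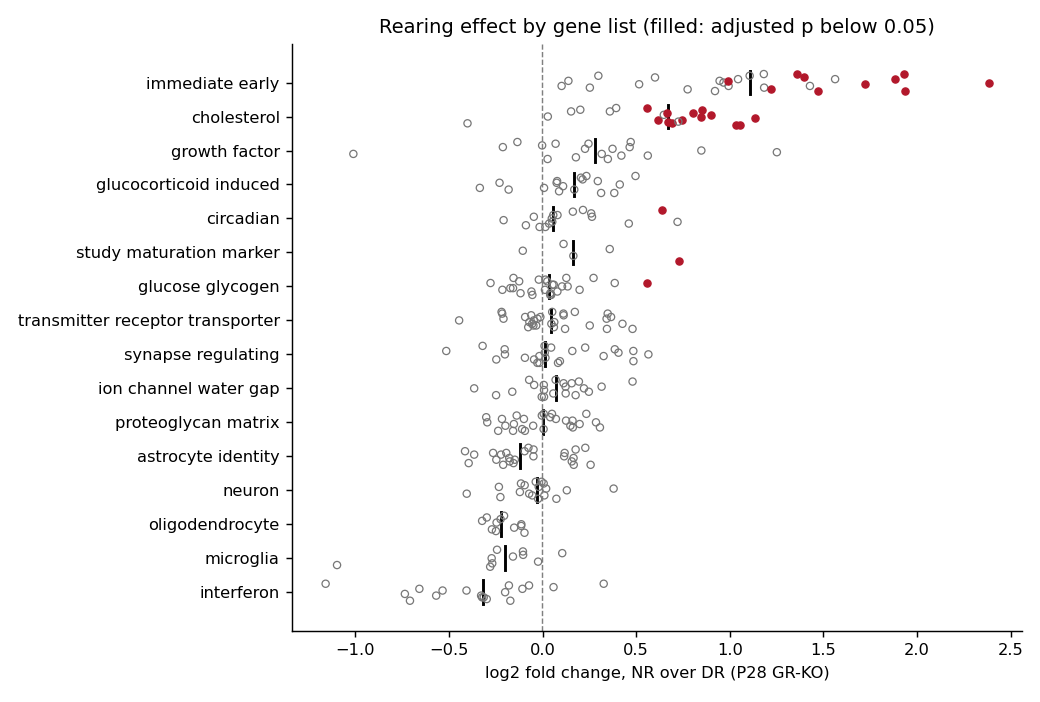
Log2 fold change, NR over DR, of the members of 16 lists in P28 GR-KO nuclei. Points are genes (filled, called; open, not called), black bars are list medians and the dashed line is the median of all genes at -0.0039; the immediate early and cholesterol medians lie at 1.11 and 0.67, and filled points outside these lists are single genes.

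Lists of genes that mark astrocytes or serve their contacts had no call. Their counts at an unadjusted p below 0.05 in edgeR stand beside 7.38% of all genes higher and 4.2% lower. In the astrocyte identity list, 0 of 24 were called, and 5 were lower at an unadjusted p below 0.05 in edgeR, with a list median of -0.12. These were Gja1, the gap junction protein connexin 43, Atp1b2, a sodium pump subunit, Ndrg2, and Clu and Apoe, which carry lipids. Apoe had 645, 647 and 923 CPM in NR and 713, 1031, 1136 and 1056 CPM in DR (-0.41 ± 0.16, edgeR adjusted p = 0.301), so NR replicate 3 was within the DR range. The most abundant member, the glutamate transporter Slc1a2, had 9864, 10446 and 7800 CPM in NR and 6406 to 9820 CPM in DR. Growth factor and receptor genes had 8 of 18 higher and 1 lower at an unadjusted p below 0.05 with a median of 0.28. In that list Fgfr2 had 753, 702 and 481 CPM in NR and 407, 490, 280 and 256 CPM in DR (0.85 ± 0.22, edgeR adjusted p = 0.0659), and Ntrk2, the receptor of BDNF, had 2230.0, 2243 and 1581 CPM in NR and 1227 to 1689 CPM in DR. Transmitter receptors and transporters had 5 of 29 higher at that level, ion channels 2 of 21 higher and 1 lower, synapse-regulating genes 4 of 24 higher and 2 lower, and proteoglycan and matrix genes 0 of 26 higher and 1 lower, with medians from 0.00081 to 0.07.

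The glucocorticoid-induced list had 0 of 17 called and a median of 0.17. At an unadjusted p below 0.05 in edgeR, 1 gene was higher, beside 7.38% of all genes. Pdk4, a kinase that limits glucose oxidation, was that gene, with 58.6, 54.3 and 51.7 CPM in NR and 42.1, 43.4, 45.9 and 45.3 CPM in DR. Zbtb16 had 132, 140 and 105 CPM in NR and 112, 105, 70.6 and 67.9 CPM in DR (0.50 ± 0.27, edgeR adjusted p = 0.486). Partners of the receptor had 0 of 16 called, with 2 higher and 1 lower at the unadjusted level, beside 7.38% and 4.2% of all genes. Tnc and Vcan, matrix genes named by the study, had log2 fold changes of 0.13 ± 0.12 and 0.05 ± 0.08. Their edgeR adjusted p values were 0.731 and 0.853.

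The other lists had no call either, and several medians were below 0. The unadjusted counts that follow are at p below 0.05 in edgeR, where 7.38% of all genes were higher and 4.2% lower. The interferon list stood at -0.32 (3 of 18 lower, 0 higher), ribosomal protein genes at -0.15 (0 of 18), reactive genes at -0.11 (2 of 13 higher, 1 lower) and proliferation genes at -0.19 (1 of 12 lower). Immature glia genes stood at -0.03 (1 of 18 higher, 1 lower), respiratory chain genes at 0.02 (0 of 24) and heat shock genes at 0.01 (0 of 13). Markers of oligodendrocytes stood at -0.22 with all 11 below 0 and 0 at the unadjusted level. Markers of microglia stood at -0.20 (1 of 10 lower), of ependyma and choroid plexus at -0.44 (0 of 12), of vascular cells at 0.12 (2 of 17 lower) and of oligodendrocyte precursors at 0.02 (2 of 9 higher, 1 lower). The microglia sum was 63.6, 71.3 and 84.5 CPM in NR and 63.4, 87.0, 90.9 and 91.9 CPM in DR.

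The same comparison in GR-Con nuclei at P28 called 72 genes (0.421%), 66 of them higher (0.386%) and 6 lower (0.0351%), with 5.72% of all genes higher and 5.26% lower at an unadjusted p below 0.05. Of the 96 genes called higher in GR-KO, 30 were also called in GR-Con, which is 31.3% of the GR-KO genes and 45.5% of the GR-Con genes, and 92 had a fold change of the same sign. The median log2 fold change of the 96 was 0.72 in GR-KO, where they had been selected, and 0.44 in GR-Con. Of the 15 genes called lower, Otof and Mdga1 were also called in GR-Con, and all 15 had the same sign. The share of all genes with the same sign in both genotypes was not counted. Whether the effects differed was tested as an interaction, which called 1 gene higher and 0 lower in edgeR (0.00585%), with 966 (5.65%) and 458 (2.68%) at an unadjusted p below 0.05. That gene was Stab2, a scavenger receptor, which is below 5 CPM in all GR-KO libraries and in the NR libraries of GR-Con. It had 2.40, 2.21 and 2.93 CPM in NR and 2.21, 1.54, 1.97 and 1.63 CPM in DR in GR-KO. In GR-Con it had 2.88, 2.11 and 2.30 CPM in NR and 5.82, 6.18, 3.96 and 5.37 CPM in DR. The interaction was 1.58 ± 0.28 (edgeR adjusted p = 0.0367) and was called again in 4 of 14 fits that left out a library.

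**Figure D5:**
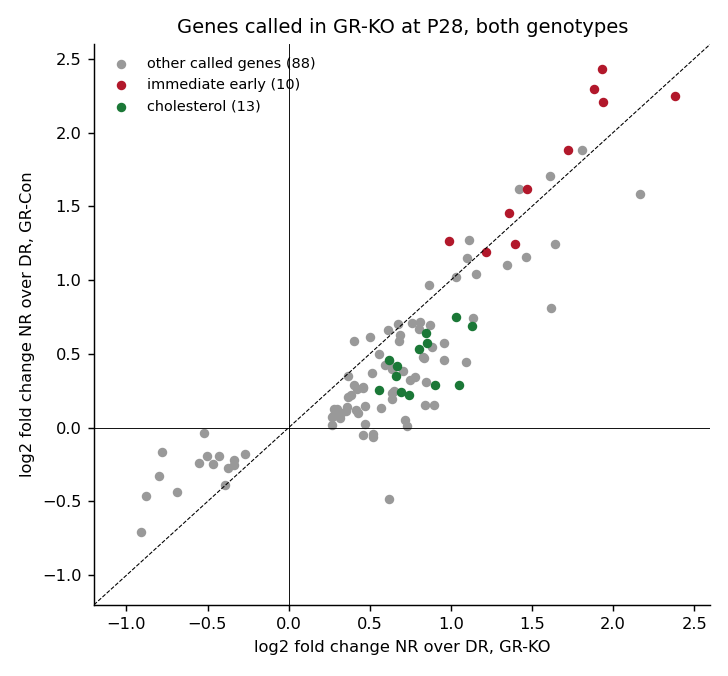
Log2 fold change, NR over DR, in GR-KO (x axis) and GR-Con (y axis) nuclei at P28 for the 111 genes called in GR-KO, with the line of equal effects. The 10 immediate early genes (red) lie near the line and the 13 cholesterol genes (green) below it; the genes were selected on the x axis.

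The immediate early genes had a median of 1.37 in GR-Con, where 16 of 27 were called, and 1.11 in GR-KO, where 10 were. No interaction was called in the list, and at an unadjusted p below 0.05 in edgeR 2 were lower in GR-KO, Klf4 and Maff. In both, GR-Con NR replicate 2 alone was far above the rest, at 23.2 CPM for Klf4 and 10.8 CPM for Maff. The spread among NR libraries was wider in GR-Con, with list sums of 1025, 1759 and 634 CPM, than in GR-KO. For Egr2 the interaction was 0.14 with a 95% interval of -1.05 to 1.32, and for Bdnf -0.27 with -0.66 to 0.11, so that both intervals included differences of either sign.

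The cholesterol genes had a median of 0.29 in GR-Con, where 2 of 21 were called, Cyp51 among them, and 0.67 in GR-KO. In GR-Con, Cyp51 had 112, 107 and 84.8 CPM in NR, against 58.4, 60.5, 63.2 and 77.5 CPM in DR (0.64 ± 0.14, edgeR adjusted p = 0.0276), and NR replicate 3 was again the lowest NR library. No interaction was called. At an unadjusted p below 0.05 in edgeR, the rearing effect was higher in GR-KO than in GR-Con for 4 of 21 genes and lower for 0. For Cyp51 the interaction was 0.20 with a 95% interval of -0.20 to 0.60. Aldh1a1 was level in GR-Con (0.01), with 91.4, 65.2 and 101 CPM in NR and 76.1 to 93.4 CPM in DR, and its interaction of 0.72 ± 0.24 did not pass (edgeR adjusted p = 0.572).

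At P21, the same rearing comparison in GR-KO nuclei called 14 genes higher (0.0818%) and 10 lower (0.0585%), with 5.86% of all genes higher and 5.2% lower at an unadjusted p below 0.05. Of the 96 genes called higher at P28, Egr2, Ptgs2, Nsdhl, Pde10a, Pde3a and Pde7b were also called at P21, which is 6.25% of the P28 genes and 42.9% of the P21 genes, and 92 had the same sign. The 3 phosphodiesterase genes were thus called at both ages. Pde10a had 453, 366 and 429 CPM in NR at P21, against 144, 126, 99.7 and 87.4 CPM in DR, without the split among DR libraries seen at P28. Of the 15 genes called lower at P28, 0 were called at P21 and 11 had the same sign. The share of all genes with the same sign at both ages was not counted. Immediate early genes had a median of 0.61 at P21 with 1 of 27 called, and cholesterol genes 0.25 with 1 of 21.

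The change of the rearing effect between the ages called 1 gene higher and 0 lower in edgeR (0.00585%), with 599 (3.5%) and 578 (3.38%) at an unadjusted p below 0.05. This was the pseudogene Ubb-ps, which shares sequence with the ubiquitin gene Ubb, so its counts are uncertain. It had 11.7, 10.1 and 15.7 CPM in NR and 8.11, 18.3, 17.2 and 16.3 CPM in DR at P28. At P21 it had 1.25, 3.18 and 2.03 CPM in NR and 13.0, 13.0, 13.4 and 9.09 CPM in DR. The interaction was 2.23 ± 0.36 (edgeR adjusted p = 0.00677) and was called again in 13 of 14 fits that left out a library. No cholesterol or immediate early gene passed, with 8 of 21 and 4 of 27 more positive at P28 at an unadjusted p below 0.05.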

How the data were processed

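RNA was sequenced from sorted GFP+ nuclei with a total RNA kit, from 10 ng RNA of 80000 nuclei per library. Per the submitters' processing notes and the study's methods, the authors aligned reads with STAR to mm10 (GRCm38) and made the deposited gene counts with featureCounts on UCSC refGene genes, taking reads in introns as well as exons. The deposited values are raw counts, with no normalisation. Whether counting used strand was not given in the sources used here. The table held 25239 genes, of which 3732 had no count in any library, and 0 per-sample columns were left unused. Of its symbols, 25041 matched the RefSeq annotation of GRCm38.p6 directly and 105 through a synonym. The 40 libraries held 17240294 to 49221787 counts.

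After filterByExpr and TMM normalisation, a model with a mean for each of 12 groups was fitted to all 40 libraries (edgeR 4.0.16 in R 4.3.3), and rearing was tested with the quasi-likelihood F test. The filter kept 17106 genes. A gene was called at a Benjamini-Hochberg adjusted p below 0.05 over all genes tested, without a fold threshold. CPM values are scaled by TMM, log2 fold changes are NR minus DR, and the SE is the log2 fold change divided by the square root of F. Differences between rearing effects were tested as interaction terms in the same fit. Intervals cover 95%. Replicates are pools of different mice by the labels.

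The comparison, the gene lists and the tests were chosen with earlier results of these data known. The 26 lists described came from general knowledge, except maturation markers named by the study. Genes were named by a rule: up to 15 called genes in each direction by size with a mean of at least 5 CPM in NR or DR and no overlap of libraries, filled where fewer by unadjusted p, up to 6 called members of each list, up to 2 of highest CPM in a list without calls, up to 5 called genes for each interaction and direction, Nr3c1, and genes named by the study. Every other gene named was chosen after its values were seen. Some genes that the rule or lists hold are not reported here. The script was tested on simulated data.

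The counts were also analysed with the Wald test of DESeq2 1.42.0, with its size factors in edgeR, without the filter, in the compared groups alone, with a block for the replicate number, with an offset for gene length, without the 20 most abundant genes and without each library in turn. Chosen after seeing the data, neuron and oligodendrocyte marker levels were added as covariates, and the immediate early and cholesterol lists were read without NR replicate 3.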

Additional observations from a re-analysis of the deposited data

Results flagged for a closer look

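In 6 of the 89 named genes, 1 DR library of P28 GR-KO lay far from the other 3, where chance gives about 1 in 20 groups, and none of the 26 list sums did so. DR replicate 1 was the highest in 4 of them. Trpm3 stood at 1392 CPM in that library and at 750 to 815 CPM in the others. Bcan stood at 1210.5 CPM there, against 876 to 923 CPM. Lhfpl3 stood at 62.9 CPM there, against 30.3 to 34.0 CPM, and Nr3c1 at 309 CPM, against 242 to 252 CPM. Bambi was highest in DR replicate 2, at 2.73 CPM, against 1.51 to 1.66 CPM. Ccnd2 was lowest in DR replicate 4, at 44.2 CPM, against 50.8 to 51.5 CPM.

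The rearing effect differed between groups in 2 genes by the interaction test of edgeR. Stab2 differed between GR-KO and GR-Con at P28 by 1.58 on the log2 scale (adjusted p = 0.0367), and Ubb-ps differed between P28 and P21 in GR-KO by 2.23 (adjusted p = 0.00677).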

How the results depend on the processing

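None of the 39 named genes that were called changed direction in the alternatives run, and the other called genes were not followed singly. List medians moved by more than the SD between DR libraries in 13 cases with a library left out, among them cholesterol (0.46 without NR replicate 1 and 0.90 without NR replicate 3), and in 3 cases with the gene length offset. The count for P28 GR-KO, 111 genes, was 240 with the DESeq2 Wald test (108 shared), 431 with the marker covariates chosen after seeing the data (111 shared) and 1 with only the groups compared. Leaving out each library gave 10 to 578. The count for P28 GR-Con, 72, was 161 with the Wald test and 1 with only the groups compared, and 6 (without NR replicate 2) to 124 (without NR replicate 3) with a library left out. The count for P21 GR-KO, 24, was 99 with the Wald test, 45 with the gene length offset and 154 with the covariates, and 10 to 30 with a library left out. The interaction of GR-KO and GR-Con, 1 gene, gave 2 with the Wald test, 0 with only the groups compared, with the length offset and with the covariates, and 0 to 1 with a library left out. The interaction of the ages, 1 gene, gave 21, 0, 3 and 17 in the same order, and 0 to 5 with a library left out. The causes were not tested. DESeq2 size factors, no filter and leaving out the 20 most abundant genes kept these counts within 1.5 times.

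With the replicate number as a block, 84 genes were called in P28 GR-KO (78 shared), 38 in P28 GR-Con, 50 in P21 GR-KO, 0 for the interaction of the genotypes and 1 for that of the ages. Deviations of libraries of the same number correlated at 0.206, 0.00093 and 0.262 in P28 GR-KO, and those of unlike number at -0.333 to 0.203. NR replicates 1 and 3 each correlated most with the DR library of their own number, and NR replicate 2 with DR replicate 1. In P28 GR-Con the values for the same number were -0.075, 0.027 and 0.012. The main fit did not pair the libraries, and whether the numbers mark a shared batch was not tested.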
